A study of Rattus norvegicus with 29 samples.

Results

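After 28 daily oral doses of 200 mg/kg, PMCol was set against its vehicle in rat liver on day 29, and the comparison was followed across all genes with a single symbol on the array. PMCol is 2,2,5,7,8-pentamethyl-6-chromanol, a chromanol that carries the ring of vitamin E without its long side chain. The animals dosed with 200 mg/kg (n = 6) and the vehicle animals (n = 6) were male Crl:CD Sprague-Dawley rats, and every animal was gavaged once a day for 28 days. The labels give an age of 6 to 7 weeks, alike for animals of day 8 and of day 29. It may therefore not be the age at which these livers were taken. The vehicle was 1% methylcellulose in sterile water. The 12 arrays, 1 for each animal's left liver lobe, are 12 of the 29 of the series. A group given 2000 mg/kg for 28 days (n = 5), and groups of day 8 given 2000 mg/kg (n = 6) or vehicle (n = 6) for 7 days, enter only where stated. Of 27342 transcript clusters, those with 1 symbol covered the 14324 genes described here.

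The liver meets foreign compounds with enzymes made on demand. The nuclear receptors CAR and PXR raise cytochrome P450, carboxylesterase and glucuronosyltransferase genes, while the transcription factor NRF2, released from its inhibitor Keap1 by electrophiles, raises glutathione transferases and quinone reductases. Growth hormone acts in the same tissue through JAK2 and STAT5, and its feedback inhibitors Socs2 and Cish are themselves STAT5 targets. Immediate early genes such as Egr1 and Jun respond within minutes to growth factors and to stress, and the phosphatase Dusp6 restrains the ERK kinases that drive them.

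Values are log2 signals from which each transcript cluster's own median across all arrays had been taken away. They show differences between animals and give no expression level. For some genes, among them Abcc3, Gsta3, Nqo1 and Cyp1a1, the signal before centring was not recognised as 8 or more in every animal. Each gene is given by its lowest, median and highest animal in a group, and then by its log2 difference, the 200 mg/kg mean minus the vehicle mean, ± the standard error of a limma fit over all 29 animals. A gene was called when its p, adjusted by the Benjamini-Hochberg method over 27342 clusters, lay under 0.05, and "rose" and "fell" are kept for called genes. In all 374 clusters rose and 387 fell, which is 1.37% and 1.42% of those tested. Among the 14324 genes, 524 were called (3.66%), of which 267 rose (1.86%) and 257 fell (1.79%). These shares are the background for the list counts below. A list with a like share holds no more calls than genes at large. Most changes were small: the median size among called genes was 0.35 on the log2 scale, and 18 genes rose and 12 fell by at least 2-fold, 0.126% and 0.0838% of the genes. At that size 24 clusters rose (0.0878%) and 14 fell (0.0512%). The median difference over all clusters was 0.003. Of the 524 called genes, 228 had groups that did not overlap, and 278 genes in all did so, 1.94% of those tested.

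The 6 replicates of each group are called treated rats 1 to 6 and vehicle rats 1 to 6. Of the vehicle arrays 2 stood apart from the other 4. Deviations from the group mean had an SD over clusters of 0.215 in vehicle rat 1 and 0.169 in vehicle rat 2, against 0.116 to 0.123 in the other 4 vehicle animals. In the 200 mg/kg animals that SD lay between 0.114 and 0.165. Treated rats 1 and 3, at 0.165 and 0.158, came near vehicle rat 2. Without vehicle rats 1 and 2 together 281 clusters rose and 414 fell. With the other 17 animals of the series left out of the fit, so that only the 12 compared entered, 179 clusters rose and 161 fell, and 38 of the 106 called genes named here were no longer called. They are named below with those that lost their call in a fit of the 17 animals of day 29, or without vehicle rats 1 and 2 together. The counts moved by more than 1.5 times without 3 of the treated animals taken singly: 217 clusters rose and 219 fell without treated rat 5, 224 rose and 227 fell without rat 6, and 632 fell without rat 1.

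**Figure D1:**
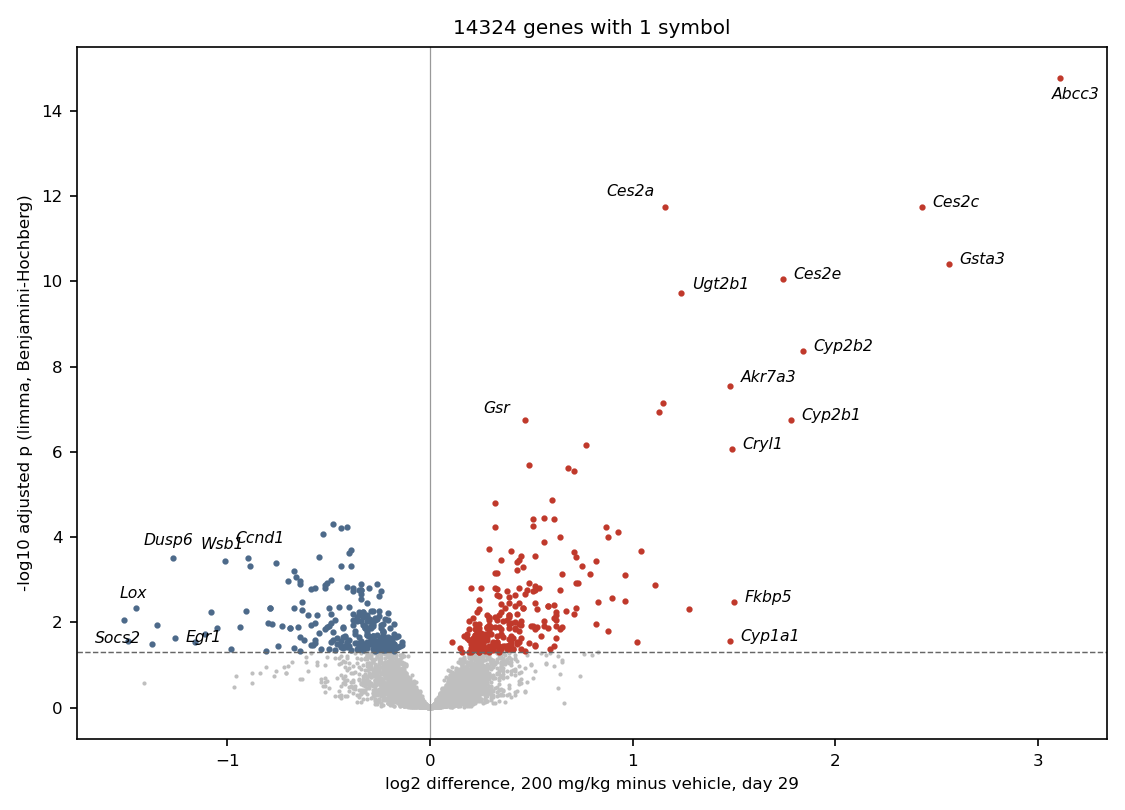
Log2 difference of 200 mg/kg minus vehicle at day 29 (horizontal) against -log10 of the limma adjusted p (vertical) for 14324 genes; red points rose, blue points fell, grey points were not called, and the dashed line is the threshold of 0.05. Abcc3 at 3.11, Gsta3 at 2.56 and Ces2c at 2.43 lie far to the right, while no fall exceeds 1.51 in size.

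Promoters of 7 called genes are shown as examples from 3 groups of changes described below. These are the paired P450 genes, the glutathione and NADPH enzymes, and the feedback and immediate early genes. The promoters printed for searched letters all hold them, so they do not stand for their groups. Each window runs from 250 bases before to 50 bases after the start of transcription, 300 bases in all, from RefSeq on the rat build GRCr8, written 5′ to 3′ on the gene's own strand. The table held 222 of the 267 genes that rose and 209 of the 257 that fell.

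Cyp2b1 (chr1:90645869-90646168, plus strand) and Cyp2b2 (chr1:90722031-90722330, plus strand) are neighbouring copies. Their windows overlapped over 283 aligned positions, of which 275 were identical (97.2%), with no gap. Capitals mark the 8 bases in each that differ from the other.
Cyp2b1: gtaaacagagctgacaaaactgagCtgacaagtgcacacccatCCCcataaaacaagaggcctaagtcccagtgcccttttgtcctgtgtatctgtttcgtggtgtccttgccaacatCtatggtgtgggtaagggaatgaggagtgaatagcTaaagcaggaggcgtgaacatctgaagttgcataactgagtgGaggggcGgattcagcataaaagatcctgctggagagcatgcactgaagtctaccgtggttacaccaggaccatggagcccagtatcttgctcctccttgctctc
Cyp2b2: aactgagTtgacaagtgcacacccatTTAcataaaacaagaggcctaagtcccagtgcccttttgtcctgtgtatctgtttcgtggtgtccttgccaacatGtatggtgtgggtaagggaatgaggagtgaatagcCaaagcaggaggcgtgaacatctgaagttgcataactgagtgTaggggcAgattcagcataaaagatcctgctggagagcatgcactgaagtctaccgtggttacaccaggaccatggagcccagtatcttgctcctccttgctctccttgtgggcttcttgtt

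The letters TGACNNNGC, searched on both strands, are the core of the antioxidant response element to which NRF2 binds with small Maf proteins. They were found in 12.2% of 27457 promoters of this length, in 39 of the 222 promoters of genes that rose (17.6%) and in 20 of the 209 of genes that fell (9.57%). The 27457 promoters, here and for the letters below, also belong to genes outside the 14324 described. The shares are thus not like for like, and no test was made. A match is a description of the letters and not a measured binding site. Gsta3 (chr9:31154739-31155038, plus strand) was the only one of the 24 largest rises, 20 of which had a promoter in the table, to hold the letters. Nqo1, another of those rises, did not hold the letters in this window, and bases further upstream were not searched. Me1 (chr8:96540195-96540494, minus strand) and Pir (chrX:33851000-33851299, minus strand) held them too. Capitals mark the matches.
Gsta3: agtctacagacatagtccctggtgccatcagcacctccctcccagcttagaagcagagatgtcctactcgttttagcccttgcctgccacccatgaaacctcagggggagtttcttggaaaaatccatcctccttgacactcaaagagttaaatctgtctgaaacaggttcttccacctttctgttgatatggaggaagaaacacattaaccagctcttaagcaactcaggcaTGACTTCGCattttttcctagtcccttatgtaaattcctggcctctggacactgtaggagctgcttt
Me1: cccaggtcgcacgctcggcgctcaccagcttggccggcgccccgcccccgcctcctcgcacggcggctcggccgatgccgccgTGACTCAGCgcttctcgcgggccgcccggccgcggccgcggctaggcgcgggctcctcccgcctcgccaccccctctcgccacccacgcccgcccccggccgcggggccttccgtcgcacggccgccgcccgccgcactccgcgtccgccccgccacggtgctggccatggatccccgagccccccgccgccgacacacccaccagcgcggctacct
Pir: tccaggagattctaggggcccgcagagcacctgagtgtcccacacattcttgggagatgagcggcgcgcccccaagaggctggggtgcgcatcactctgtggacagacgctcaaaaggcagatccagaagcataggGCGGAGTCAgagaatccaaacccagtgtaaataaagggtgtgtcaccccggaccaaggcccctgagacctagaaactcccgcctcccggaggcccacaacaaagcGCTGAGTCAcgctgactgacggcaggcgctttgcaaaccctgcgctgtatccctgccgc

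In Cish (chr8:116850719-116851018, plus strand) the capitals mark TTCNNNGAA, the palindrome that STAT5 binds, which reads alike on both strands and was counted once. The Cish window held 4 matches, and 8.68% of all promoters held at least 1. So did 13 of the 222 promoters of genes that rose (5.86%) and 17 of the 209 of genes that fell (8.13%). Among the largest changes with a promoter, 3 of 20 rises held a match and 1 of 14 falls (7.14%), Cish itself. In Egr1 (chr18:26736828-26737127, plus strand) the capitals mark the CArG box, the site of the serum response factor, with 2 matches, and 1.64% of all promoters held it, as did 3 of the 222 of genes that rose (1.35%) and 4 of the 209 of genes that fell (1.91%).
Cish: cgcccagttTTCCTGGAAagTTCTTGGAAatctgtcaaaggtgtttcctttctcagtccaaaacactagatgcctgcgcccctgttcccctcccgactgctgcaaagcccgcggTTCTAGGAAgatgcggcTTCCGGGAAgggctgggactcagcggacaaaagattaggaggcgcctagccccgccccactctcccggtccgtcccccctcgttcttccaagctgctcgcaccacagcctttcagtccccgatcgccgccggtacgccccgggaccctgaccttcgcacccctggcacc
Egr1: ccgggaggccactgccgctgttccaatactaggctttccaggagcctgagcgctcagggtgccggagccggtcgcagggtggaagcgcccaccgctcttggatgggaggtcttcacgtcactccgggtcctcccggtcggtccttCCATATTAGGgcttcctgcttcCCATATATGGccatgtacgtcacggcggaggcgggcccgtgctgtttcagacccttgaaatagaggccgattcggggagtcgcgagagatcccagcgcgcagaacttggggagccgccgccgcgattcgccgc

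The largest rise was that of Abcc3, the basolateral efflux pump for glucuronides and other conjugates. Its values were -0.30, 0.07 and 0.35 in the 200 mg/kg animals, against -3.33, -3.12 and -2.49 in vehicle animals. The groups lay far apart, and the difference of 3.11 ± 0.13 is a fold of 8.63 (adjusted p = 1.73e-15). It was the only one of 18 measured ABC efflux pumps that was called. Abcb1b, a P-glycoprotein gene, had a difference of 0.80 ± 0.23 (adjusted p = 0.0577), Abcb1a of 0.40 ± 0.13 (adjusted p = 0.101) and Abcc4 of 0.35 ± 0.11 (adjusted p = 0.0913).

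P450 enzymes of the CAR response rose beside it. Cyp2b2 had values of -0.07, 0.00 and 0.37 in the 200 mg/kg animals, against -2.48, -1.71 and -1.31 in vehicle animals, a difference of 1.84 ± 0.15 (adjusted p = 4.32e-09). Cyp2b1 had values of -0.13, 0.00 and 0.46 in the 200 mg/kg animals, against -2.25, -1.84 and -0.93 in vehicle animals, a difference of 1.78 ± 0.17 (adjusted p = 1.75e-07). Neither gene's groups overlapped. The promoter windows of these copies are nearly alike, as printed above, but their transcripts were not compared. Probes for one may read the other, so the split between them is uncertain. Of 20 measured receptors and P450 targets of CAR and PXR, 6 rose and 0 fell, with a median of 0.12. Nr1i3, which encodes CAR itself, rose by 0.58 ± 0.12 (adjusted p = 0.00405), with 5 of 6 treated animals above every vehicle animal. Tsku, which encodes a protein secreted by the liver, rose by 1.28 ± 0.26 (adjusted p = 0.00475). The 2 smaller rises were those of Por, the reductase that supplies P450s with electrons, at 0.41 ± 0.11 (adjusted p = 0.0427), and Cyp2c6v1 at 0.21 ± 0.05 (adjusted p = 0.0293). The call of Por was lost without any single animal other than treated rat 1 and vehicle rat 3 (adjusted p up to 0.107). That of Cyp2c6v1 was lost without treated rat 2 or 6 or vehicle rat 1, 2 or 4 (up to 0.0919). Without vehicle rats 1 and 2 together, 4 of the 6 were called. The PXR target Cyp3a23-3a1 had a difference of 0.23 ± 0.08 (adjusted p = 0.103), and Cyp3a9, a female-predominant P450, of -0.76 ± 0.27 (adjusted p = 0.141). Calls that also ended were those of Cyp2c6v1 with the 12 animals alone (adjusted p = 0.144), Cyp2c6v1 with the 17 of day 29 (adjusted p = 0.0627), and of Por and Cyp2c6v1 without vehicle rats 1 and 2 together (adjusted p up to 0.16).

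Among carboxylesterases, which split esters and amides, Ces2c changed most. It had values of -0.16, 0.04 and 0.39 in the 200 mg/kg animals, against -2.85, -2.39 and -1.73 in vehicle animals, a difference of 2.43 ± 0.14 and a fold of 5.41 (adjusted p = 1.76e-12). Ces2e rose by 1.74 ± 0.12 (adjusted p = 8.61e-11) and Ces2a by 1.16 ± 0.07 (adjusted p = 1.76e-12). In all 3 genes every treated animal lay above every vehicle animal. With Ephx1, the microsomal epoxide hydrolase, at 0.51 ± 0.07 (adjusted p = 5.41e-05), they were the 4 of 17 members that rose in a mixed list. Beside Ces genes and Ephx1 that list held the other hydrolases Aadac, Bche, Pon1, Pon2, Pon3 and Ephx2, none of them called. The median of the list was 0.07 and none fell, so the rises belonged to a few members. Aldh1a1, which oxidises retinal and other aldehydes, rose by 1.13 ± 0.11 (adjusted p = 1.18e-07) and was the only one of 14 aldehyde dehydrogenases called. Among 20 measured genes of glucuronidation and sulfation, of 38 listed, Ugt2b1 rose by 1.24 ± 0.09 (adjusted p = 1.89e-10) and Ugt2a3 by 0.90 ± 0.17 (adjusted p = 0.00267), while 0 fell. No Ugt1a gene was among the 20.

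**Figure D2:**
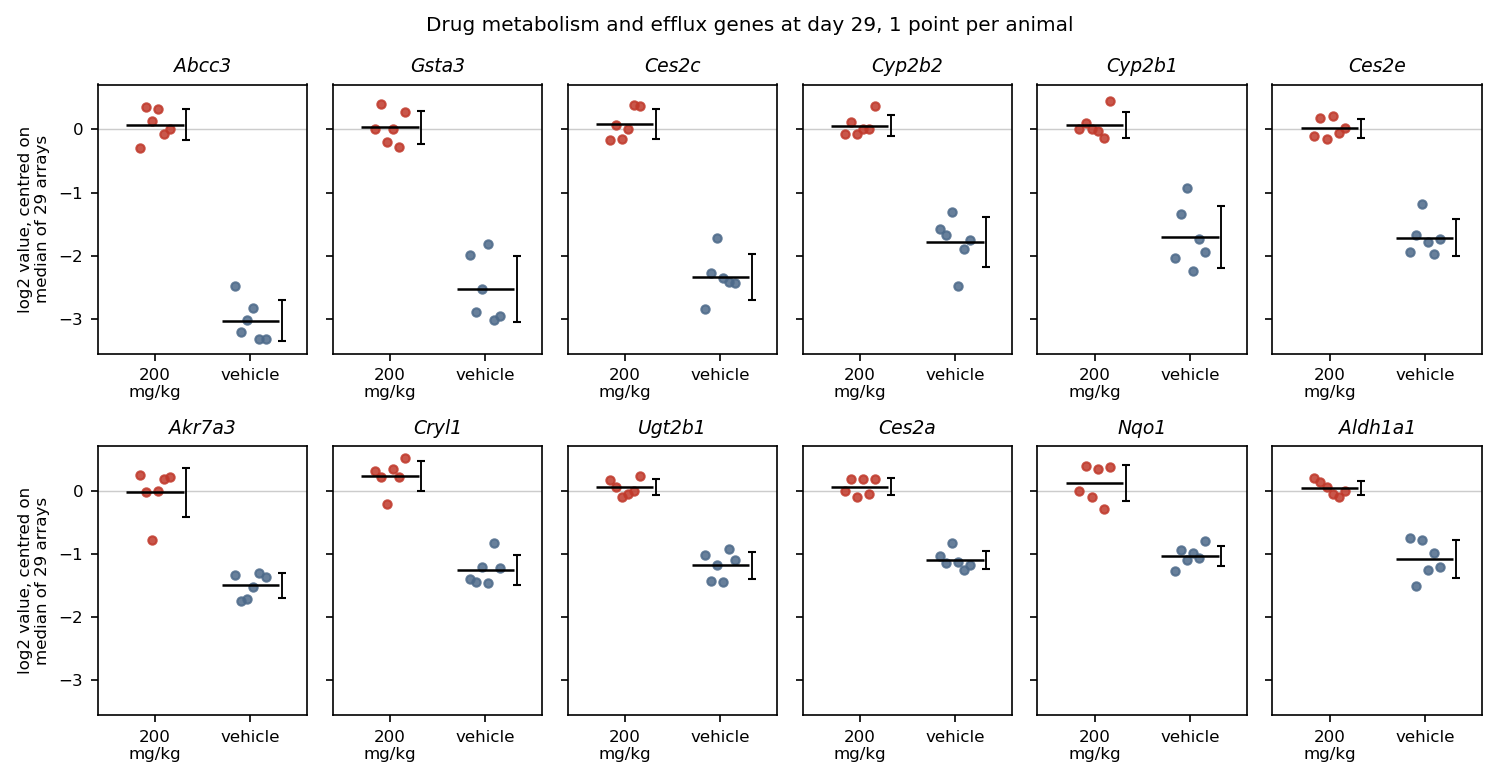
Centred log2 value (vertical) of 12 genes in each of the 6 animals given 200 mg/kg (red, left) and the 6 vehicle animals (blue, right) of day 29; the horizontal bar is the mean and the error bar 1 SD. In each of these panels all 6 treated animals lie above all 6 vehicle animals, including the single low Akr7a3 value of -0.78 in treated rat 3.

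Glutathione transferases, which join glutathione to electrophiles, were led by Gsta3. Its values were -0.28, 0.00 and 0.40 in the 200 mg/kg animals, against -3.02, -2.71 and -1.81 in vehicle animals, a difference of 2.56 ± 0.17 and a fold of 5.91 (adjusted p = 3.8e-11). The other rises were far smaller: Gstt1 rose by 0.56 ± 0.07, Mgst2 by 0.53 ± 0.12, Gstm4 by 0.49 ± 0.05, Gsta1 by 0.32 ± 0.04 and Gstm1 by 0.20 ± 0.04 (adjusted p of 0.0129 or less). Of 20 members 6 rose and 1 fell, with a median of 0.11. The member that fell was Ltc4s, which does not detoxify but makes leukotriene C4, at -0.48 ± 0.06 (adjusted p = 4.84e-05). Gstp1, a transferase scarce in normal adult rat hepatocytes, had a difference of 0.38 ± 0.15 that was not called (adjusted p = 0.192), although its 6 treated animals lay above the 6 vehicle animals. Members of this family are similar in sequence, so the array may not separate them fully. Other fits ended the calls of Mgst2 and Gstm1 in a fit of the 12 animals (adjusted p up to 0.109).

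Among 29 measured NRF2-linked enzymes of quinone reduction, heme breakdown, thioredoxin and glutathione supply, 6 rose and 0 fell, with a median of 0.14, and without vehicle rats 1 and 2 together 4 rose. Nqo1, the quinone reductase, had values of -0.28, 0.17 and 0.40 in the 200 mg/kg animals, against -1.27, -1.03 and -0.80 in vehicle animals, a difference of 1.15 ± 0.11 (adjusted p = 7.03e-08). Me1, the malic enzyme that makes NADPH, rose by 0.75 ± 0.12 (adjusted p = 0.000464) and Gsr, glutathione reductase, by 0.47 ± 0.05 (adjusted p = 1.75e-07). These groups did not overlap either. Gclc, the catalytic subunit of glutathione synthesis, rose by 0.34 ± 0.09 (adjusted p = 0.035), Srxn1, sulfiredoxin, by 0.24 ± 0.06 (adjusted p = 0.0266) and Keap1 by 0.17 ± 0.04 (adjusted p = 0.0214). Those 3 calls were each lost when any 1 of several animals was left out. Gclc was lost without treated rat 2, 4, 5 or 6 or vehicle rat 1, 3 or 6 (adjusted p up to 0.0984), Srxn1 without treated rat 3 or 5 or vehicle rat 2 or 6 (up to 0.0733), and Keap1 without treated rat 5 or 6 or vehicle rat 3 or 5 (up to 0.0614). Other members were not called: Gclm, the modifier subunit, had a difference of 0.14 ± 0.08, Txnrd1, thioredoxin reductase, of 0.26 ± 0.08, and Hmox1, heme oxygenase, of 0.52 ± 0.18 (adjusted p of 0.421, 0.0563 and 0.136). Pir, pirin, an iron protein outside that list, rose by 0.68 ± 0.08 (adjusted p = 2.38e-06). No longer called were Keap1 with the 12 animals alone (adjusted p = 0.103), Gclc and Keap1 with the 17 of day 29 (adjusted p up to 0.071), and Gclc and Srxn1 without vehicle rats 1 and 2 together (adjusted p up to 0.0815).

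Reductases of aldehydes and ketones gave 4 rises and 0 falls among 17. Cryl1, lambda-crystallin, a dehydrogenase of L-gulonate, had values of -0.21, 0.27 and 0.52 in the 200 mg/kg animals, against -1.46, -1.31 and -0.82 in vehicle animals, a difference of 1.49 ± 0.16 (adjusted p = 8.77e-07). Akr7a3, the aflatoxin aldehyde reductase, had values of -0.78, 0.10 and 0.25 in the 200 mg/kg animals, against -1.75, -1.44 and -1.30 in vehicle animals, a difference of 1.48 ± 0.13 (adjusted p = 2.92e-08). Its relative Akr7a2 and the steroid reductase Akr1d1 rose by only 0.24 ± 0.06 and 0.23 ± 0.05 (adjusted p of 0.017 and 0.012). Without vehicle rats 1 and 2 together, 2 members rose and 1 fell. Akr1b7, a reductase of the same superfamily, stood at 0.20 ± 0.24 (adjusted p = 0.825). Calls that also ended were those of Akr7a2 and Akr1d1 in a fit of the 12 animals (adjusted p up to 0.114), Akr1d1 in a fit of the 17 animals of day 29 (adjusted p = 0.0664), and of Akr7a2 and Akr1d1 without vehicle rats 1 and 2 together (adjusted p up to 0.112).

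Cyp1a1, the classical target of the aryl hydrocarbon receptor, varied widely among treated animals. Its values were -0.06, 0.27, -0.24, 2.15, 0.46 and 1.22 in treated rats 1 to 6, against -0.90 to -0.80 in the vehicle animals. Each treated animal exceeded every vehicle animal, and 2 of them by far more than the rest. The difference was 1.48 ± 0.38 (adjusted p = 0.0275), a call lost without treated rat 4, 5 or 6 or vehicle rat 5 or 6 (adjusted p up to 0.0818) and without vehicle rats 1 and 2 together. Ahr, the receptor, rose by 0.39 ± 0.09 (adjusted p = 0.0137). With Nqo1 these were the 3 rises among 11 members, whose median was -0.05. When vehicle rats 1 and 2 were both left out, 1 member rose and 1 fell. Of 17 transporters that take up organic ions, Slc22a7 fell by 0.28 ± 0.06 (adjusted p = 0.012) and Slc22a18 rose by 0.21 ± 0.06 (adjusted p = 0.0456). The Slc22a18 call was lost without any single one of treated rats 2 to 6 or of vehicle rats 1, 3 and 5 (adjusted p up to 0.144). Other fits ended the calls of Ahr, Slc22a7 and Slc22a18 with the 12 animals alone (adjusted p up to 0.226), Cyp1a1, Slc22a7 and Slc22a18 with the 17 of day 29 (adjusted p up to 0.131), and of Ahr and Slc22a18 without vehicle rats 1 and 2 together (adjusted p up to 0.142).

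Genes of growth hormone signalling were among the falls. Socs2 had values of -1.63, -0.26 and 1.17 in the 200 mg/kg animals, against 0.62, 1.17 and 1.79 in vehicle animals, a difference of -1.51 ± 0.33 (adjusted p = 0.00892). Of the treated animals 5 lay below every vehicle animal, and rat 1, at 1.17, lay among them. Onecut1, a hepatocyte transcription factor raised by growth hormone, differed by -1.35 ± 0.30 (adjusted p = 0.0113), again with 5 of 6 treated animals below all vehicle animals. Cish, whose promoter is printed above, had values of -0.53, -0.24 and 1.02 in the 200 mg/kg animals, against -0.09, 1.53 and 2.75 in vehicle animals. Those groups overlapped, and the difference of -1.37 ± 0.36 (adjusted p = 0.0324) was not called without treated rat 2, 4, 5 or 6 or vehicle rat 1, 2 or 6 (adjusted p up to 0.0988), nor without vehicle rats 1 and 2 together. Igfals, which stabilises circulating IGF, fell by 0.31 ± 0.07 (adjusted p = 0.0197), a call lost without treated rat 4 or 5 or vehicle rat 5 (up to 0.0561). These were the 4 falls among 19 members, of which 0 rose and whose median was -0.14. Without vehicle rats 1 and 2 together, 6 members fell. Igfbp1, which binds IGF, stood at -0.64 ± 0.25 (adjusted p = 0.211) and Bcl6, a repressor of STAT5 targets, at 0.74 ± 0.28 (adjusted p = 0.18). No longer called were Socs2 (adjusted p = 0.0776), Onecut1 (adjusted p = 0.0604) and Cish (adjusted p = 0.22) in a fit of the 12 animals, and Cish in a fit of the 17 animals of day 29 (adjusted p = 0.113).

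Genes that depend on the sex pattern of growth hormone were mostly not called. Of 14 male-predominant genes 1 fell and 0 rose, and of 12 female-predominant genes 2 fell and 0 rose, and 0 of either direction among the 12 without vehicle rats 1 and 2 together. Cyp2c11, the main male P450 of rat liver, had a difference of 0.04 ± 0.16 (adjusted p = 0.967), with a 95% interval from -0.30 to 0.37. Cyp2c12, its female counterpart, fell by 0.67 ± 0.18 (adjusted p = 0.0401), Rgn, regucalcin, by 0.64 ± 0.16 (adjusted p = 0.0215) and Hao2, a hydroxyacid oxidase, by 0.42 ± 0.11 (adjusted p = 0.0361). All 3 calls were lost without some single animals. For Cyp2c12 these were treated rats 3 to 6 and vehicle rats 2, 4, 5 and 6 (adjusted p up to 0.104), for Rgn treated rats 3 and 5 and vehicle rat 6 (up to 0.063), and for Hao2 treated rats 2 to 5 and vehicle rats 3 to 6 (up to 0.0942). Calls that also ended were those of Hao2 with the 17 of day 29 (adjusted p = 0.0573), and of Cyp2c12 and Hao2 without vehicle rats 1 and 2 together (adjusted p up to 0.0602).

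Immediate early genes gave 4 falls and 0 rises among 35, with a median of -0.15. Egr1 had values of -0.77, -0.02 and 0.66 in the 200 mg/kg animals, against 0.67, 0.98 and 1.85 in vehicle animals, a difference of -1.26 ± 0.31 (adjusted p = 0.0233). The groups only just failed to overlap. Dusp6 had values of -0.68, -0.14 and 0.59 in the 200 mg/kg animals, against 0.82, 1.08 and 1.87 in vehicle animals, a difference of -1.27 ± 0.20 (adjusted p = 0.000305). Nr4a1, an orphan nuclear receptor, differed by -1.49 ± 0.38 (adjusted p = 0.028) and Jun, a subunit of AP-1, by -1.16 ± 0.30 (adjusted p = 0.029). Of the 4 calls 3 were each lost when any 1 of several animals was left out. Egr1 lost its call without treated rat 5 or 6 or vehicle rat 5 or 6 (adjusted p up to 0.0758), Nr4a1 without treated rat 3, 4, 5 or 6 or vehicle rat 4 or 6 (up to 0.092), and Jun without treated rat 3, 4, 5 or 6 or vehicle rat 1, 5 or 6 (up to 0.0876). Without vehicle rats 1 and 2 together, 3 members fell. Fos, the partner of Jun, stood at -0.71 ± 0.26 (adjusted p = 0.158) and Atf3 at -1.41 ± 0.60 (adjusted p = 0.266). Ccnd1, cyclin D1, which drives entry into the cell cycle, fell by 0.90 ± 0.14 (adjusted p = 0.000304), and Mcm10, a replication factor, by 0.79 ± 0.16 (adjusted p = 0.00461). They were the 2 falls among 41 genes of replication and mitosis, of which 0 rose. Other fits ended the calls of Nr4a1, Jun and Mcm10 in a fit of the 12 animals (adjusted p up to 0.142), Nr4a1 and Jun in a fit of the 17 animals of day 29 (adjusted p up to 0.0656), and of Jun without vehicle rats 1 and 2 together (adjusted p = 0.0808).

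Treated animals did not behave alike for these genes. Nr4a1 stood at 1.47, 0.99, -0.53, -1.14, -0.82 and -1.30 in treated rats 1 to 6, against 0.79 to 1.88 in vehicle animals. Rats 1 and 2 thus lay within the vehicle range and the other 4 below it. Fkbp5, a glucocorticoid-induced partner of Hsp90, stood at 0.00, -0.20, 1.34, 1.80, 1.90 and 1.81 in the same animals, against -0.53 to -0.28 in vehicle animals. Here rats 1 and 2 lay just above the vehicle animals and the other 4 well above. Jun was 1.23 and 0.29 in treated rats 1 and 2 and between -1.41 and -0.38 in the others, against 0.59 to 1.27 in vehicle animals. Thrsp, a lipogenic regulator, was 0.00 and 0.34 in rats 1 and 2 and between 1.11 and 1.44 in the others, against -0.35 to 0.33 in vehicle animals. Gstm3, which was not called (-0.88 ± 0.38, adjusted p = 0.271), and the pyruvate dehydrogenase kinase Pdk4, also not called (-0.88 ± 0.31, adjusted p = 0.152), had positive values in treated rats 1 and 2 and negative ones in the other 4. By contrast Abcc3 lay between -0.30 and 0.35 in all 6 treated animals. No label explains the difference, the 2 animals were picked out after their values were seen, and no test was made of it.

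**Figure D3:**
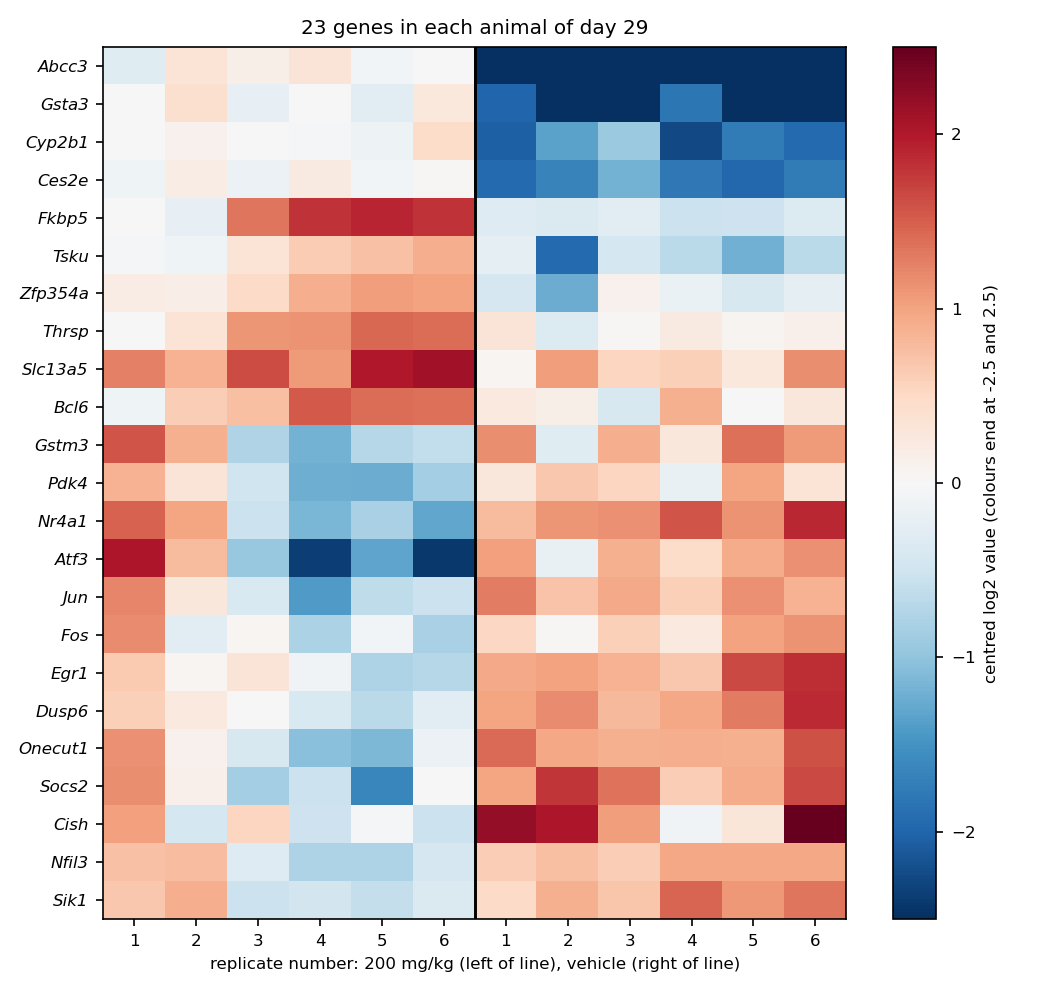
Centred log2 value (colour) of 23 genes (rows) in each animal of day 29 (columns), with treated rats 1 to 6 left of the line and vehicle rats 1 to 6 right of it. The metabolism genes of the first rows are alike in all 6 treated animals, whereas from Fkbp5 downward treated rats 1 and 2 often have the colour of vehicle animals, as for Nr4a1 at 1.47 and 0.99.

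Fkbp5 rose by 1.5 ± 0.29 (adjusted p = 0.00331), yet in a list of 26 genes of the glucocorticoid response only it rose and only Nfil3, a clock-linked repressor, fell, by 0.94 ± 0.21 (adjusted p = 0.0126). The median of that list was 0.07. Of 20 circadian clock genes 1 rose and 2 fell, the rise being that of the casein kinase Csnk1e and the falls being those of Nfil3 and Npas2, a partner of the clock protein Bmal1, at -0.63 ± 0.12 (adjusted p = 0.00331). Among 21 p53 targets 4 rose and 0 fell, with a median of 0.22. Plk3, a polo-like kinase of the stress response, had values of -0.20, 0.36 and 0.67 in the 200 mg/kg animals, against -0.95, -0.76 and -0.36 in vehicle animals, a difference of 1.04 ± 0.16 (adjusted p = 0.000209). Plk2 rose by 0.54 ± 0.10 (adjusted p = 0.00156) and Ccng1, cyclin G1, by 0.56 ± 0.12 (adjusted p = 0.00909). Ephx1, described above, was the fourth. Cdkn1a, the p53-induced cell cycle inhibitor p21, stood at 0.61 ± 0.20 and was not called (adjusted p = 0.106). No longer called were Fkbp5 (adjusted p = 0.0546), Nfil3 (adjusted p = 0.114) and Ccng1 with the 12 animals alone, and Nfil3 and Ccng1 with the 17 of day 29 (adjusted p up to 0.0681).

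Lipid and carbohydrate genes moved in both directions. Of 25 genes of gluconeogenesis and fasting signals 2 rose and 3 fell, Pklr among the falls, with a median of -0.08. Without vehicle rats 1 and 2 together, 1 of these rose and 2 fell. Of 27 genes of fatty acid synthesis 3 rose, among them Thrsp at 0.83 ± 0.23 (adjusted p = 0.05, just under the threshold), the citrate transporter Slc13a5 at 0.88 ± 0.21 (adjusted p = 0.0163) and Me1. The 3 that fell included Pklr, the liver pyruvate kinase, at -0.44 ± 0.06 (adjusted p = 6.08e-05), whose groups did not overlap, the glycerol phosphate dehydrogenase Gpd1, and Fads2, a desaturase, at -0.27 ± 0.07 (adjusted p = 0.0331). The call of Slc13a5 was lost without treated rat 5 or 6 (adjusted p up to 0.0599), that of Thrsp without treated rat 3, 4, 5 or 6 or any 1 vehicle animal (up to 0.147), and that of Fads2 without treated rat 1, 4, 5 or 6 or vehicle rat 2, 4, 5 or 6 (up to 0.0901). In 39 PPAR-alpha targets and genes of fatty acid oxidation 1 rose (2.56%) and 1, the dehydrogenase Acadm, fell. These counts lie near the 1.86% and 1.79% of all genes that rose and fell. The rise was Cyp4a8, a fatty acid hydroxylase, at 0.96 ± 0.16 (adjusted p = 0.000783), whereas its relative Cyp4a1 stood at -0.11 ± 0.07 (adjusted p = 0.561). In 23 genes of cholesterol supply only Tm7sf2, a sterol reductase, rose, by 0.64 ± 0.12 (adjusted p = 0.00176). Calls that also ended were those of Thrsp, Slc13a5 and Fads2 in a fit of the 12 animals (adjusted p up to 0.113), Thrsp and Slc13a5 in a fit of the 17 animals of day 29 (adjusted p up to 0.079), and of Thrsp without vehicle rats 1 and 2 together (adjusted p = 0.119).

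Bile acid genes gave 1 rise and 4 falls among 20. Slc27a5, which activates bile acids with coenzyme A, fell by 0.57 ± 0.13 (adjusted p = 0.0104) and Fgfr4, the receptor that restrains their synthesis, by 0.30 ± 0.07 (adjusted p = 0.00891). The other 2 falls were those of Baat, the conjugating enzyme, at -0.20 ± 0.06, and Amacr at -0.35 ± 0.10, with an adjusted p of 0.0413 each. Baat was not called without treated rat 1, 3, 4, 5 or 6 or any vehicle rat but rat 1 (adjusted p up to 0.101), and Amacr without treated rat 1, 3, 4, 5 or 6 or vehicle rat 1, 2, 4 or 5 (up to 0.118). The rise was Akr1d1. Cyp7a1, the rate-limiting enzyme of synthesis, stood at -0.36 ± 0.34 (adjusted p = 0.741), with a 95% interval from -1.05 to 0.33. In 48 genes of the urea cycle and amino acid breakdown, Hibch, of valine breakdown, rose by 0.46 ± 0.09 (adjusted p = 0.00453), while Oat, ornithine aminotransferase, fell by 0.69 ± 0.16 (adjusted p = 0.0135) and Prodh2, hydroxyproline dehydrogenase, by 0.33 ± 0.08 (adjusted p = 0.0322). The Prodh2 call was lost without any single one of treated rats 2 to 6 or of vehicle rats 1 to 4 (adjusted p up to 0.0769). Other fits ended the calls of Fgfr4 and Baat with the 12 animals alone (adjusted p up to 0.0943), Baat and Amacr with the 17 of day 29 (adjusted p up to 0.0631), and of Amacr and Prodh2 without vehicle rats 1 and 2 together (adjusted p up to 0.158).

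Since PMCol carries the chromanol ring of vitamin E, genes of vitamin E and vitamin K handling were read as well. Of 24 measured, 2 rose and 3 fell, with a median of -0.06. Ttpa, the tocopherol transfer protein, stood at -0.02 ± 0.05 (adjusted p = 0.942; 95% interval from -0.13 to 0.09). Vkorc1, the vitamin K epoxide reductase, had a 95% interval from -0.16 to 0.16 (adjusted p = 0.995). Sec14l2, a tocopherol-binding protein, fell by 0.28 ± 0.07 (adjusted p = 0.0234), Afm, afamin, a carrier of vitamin E in plasma, by 0.25 ± 0.06 (adjusted p = 0.0254) and F2, prothrombin, by 0.14 ± 0.04 (adjusted p = 0.0281). Ggcx, the vitamin K-dependent carboxylase, rose by 0.26 ± 0.07 (adjusted p = 0.0261), and Nqo1 was the other rise. These 4 small calls were lost without some single animals: Sec14l2 without treated rat 5 or 6 or vehicle rat 2, 3 or 4 (adjusted p up to 0.0785), Afm without treated rat 3, 4 or 5 or vehicle rat 3, 5 or 6 (up to 0.0704), F2 without treated rat 2, 5 or 6 or vehicle rat 4 or 6 (up to 0.0769), and Ggcx without treated rat 2, 4, 5 or 6 or vehicle rat 1 or 6 (up to 0.081). Among 40 complement and coagulation genes F2 and C8b, a subunit of the membrane attack complex, were the only 2 called, C8b at -0.16 ± 0.04 (adjusted p = 0.0214), which was lost without treated rat 5 or vehicle rat 6 (up to 0.0589). No longer called were Sec14l2, F2, Ggcx and C8b in a fit of the 12 animals (adjusted p up to 0.1), Afm and F2 in a fit of the 17 animals of day 29 (adjusted p up to 0.0631), and Ggcx without vehicle rats 1 and 2 together (adjusted p = 0.0816).

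Genes linked to stress of the endoplasmic reticulum and of amino acid supply gave 2 rises and 1 fall among 40, with a median of 0.05. Asns, asparagine synthetase, rose by 0.96 ± 0.19 (adjusted p = 0.00307), with every treated animal above every vehicle animal. Derl3, of the export of misfolded proteins from the reticulum, rose by 0.61 ± 0.13 (adjusted p = 0.00776), and Chac1, which breaks down glutathione, fell by 0.80 ± 0.18 (adjusted p = 0.0104). Several lists held no or few calls. Of 41 heat shock and proteasome genes 0 rose and 0 fell, with differences from -0.16 to 0.31, and of 67 subunits of oxidative phosphorylation 0 were called, with differences from -0.25 to 0.28. Of 66 cytosolic ribosomal proteins 1 rose (1.52%, near the 1.86% of all genes), Rplp0 at 0.20 ± 0.05 (adjusted p = 0.0321). The Rplp0 call was lost without treated rat 2, 3, 5 or 6 or vehicle rat 1, 5 or 6 (adjusted p up to 0.101). Of 26 genes that remove superoxide and peroxide, and of 36 interferon-responsive genes, 0 were called. Calls that also ended were those of Chac1 and Rplp0 with the 12 animals alone (adjusted p up to 0.0876), Rplp0 with the 17 of day 29 (adjusted p = 0.0681), and of Rplp0 without vehicle rats 1 and 2 together (adjusted p = 0.0593).

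**Figure D4:**
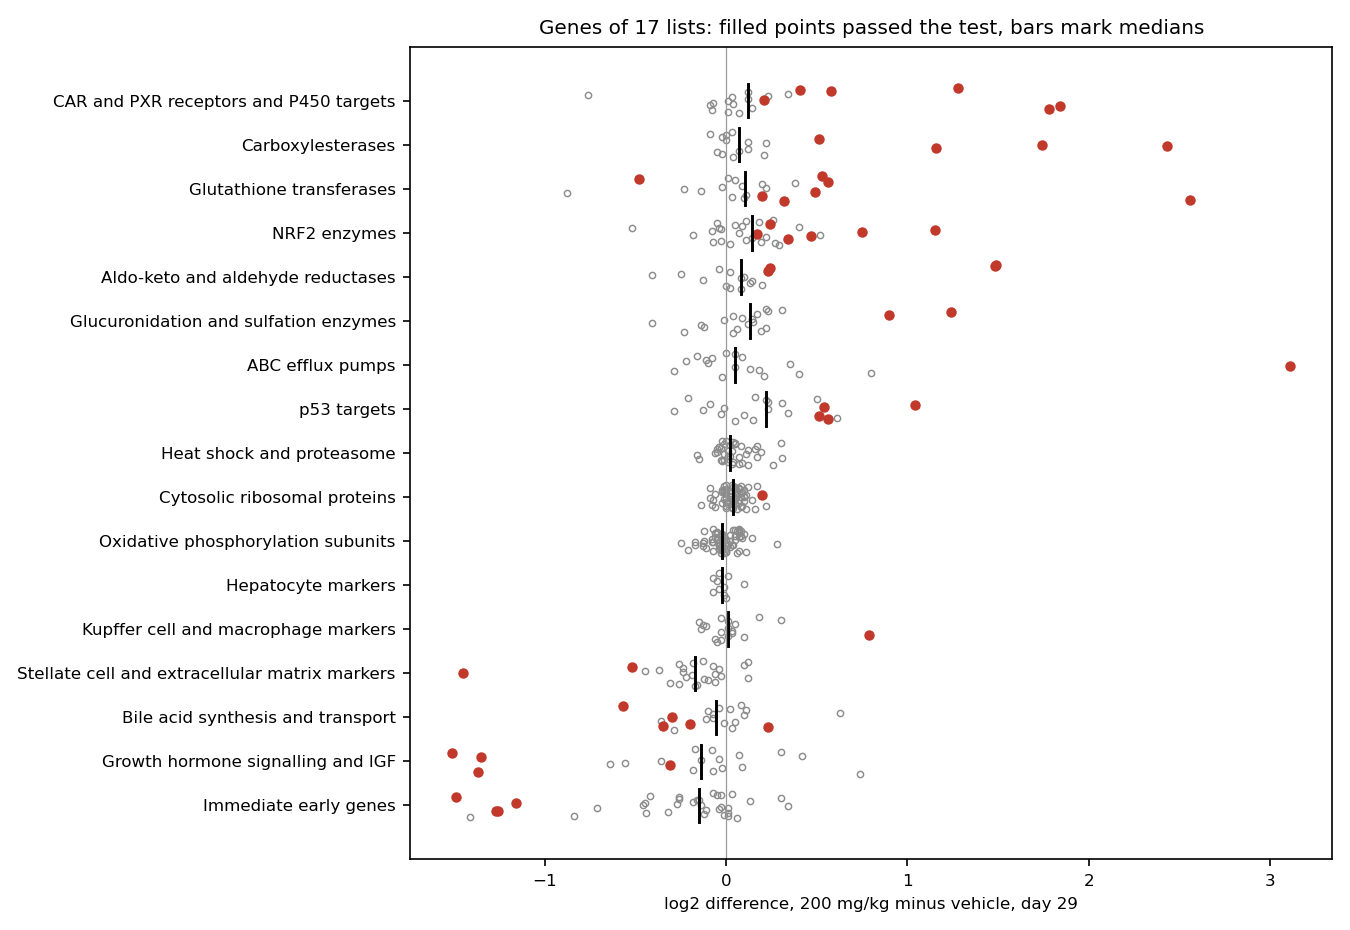
Log2 difference of 200 mg/kg minus vehicle at day 29 (horizontal) for each measured gene of 17 lists (rows); filled red points were called, open grey points were not, and black bars are list medians. Single members such as Abcc3 at 3.11 lie far out while the medians stay between -0.17 and 0.22. The carboxylesterase row also holds other hydrolases, Ephx1 among them.

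Further called genes belong to none of those groups. Snx10, a sorting nexin of endosomes, rose by 1.11 ± 0.20 (adjusted p = 0.00133), Zfp354a, a zinc finger repressor, by 1.02 ± 0.26 (adjusted p = 0.029), Gnai1, an inhibitory G protein subunit, by 0.93 ± 0.13 (adjusted p = 7.61e-05), Csmd1, a large membrane protein, by 0.88 ± 0.13 (adjusted p = 9.83e-05) and Coro6, a coronin, by 0.87 ± 0.12 (adjusted p = 5.74e-05). Zfp354a lost its call without treated rat 4, 5 or 6 or vehicle rat 2 or 5 (adjusted p up to 0.0832). Among the falls, the mitochondrial carriers Slc25a30 and Slc25a25 fell by 1.11 ± 0.27 and 1.08 ± 0.22, the kinase Sik1 by 1.05 ± 0.24, the ubiquitin ligase adaptor Wsb1 by 1.01 ± 0.16 and the aldehyde oxidase Aox3 by 0.98 ± 0.27 (adjusted p of 0.0417 or less). Wsb1, Slc25a25 and Aox3 had groups that did not overlap. Smaller falls were those of the phosphate transporter Slc34a2 at -0.91 ± 0.19, Adam11 at -0.89 ± 0.14, Krt10, a keratin, at -0.79 ± 0.16, Nedd9, a scaffold of focal adhesions, at -0.78 ± 0.17 and Rad54l2 at -0.76 ± 0.12 (adjusted p of 0.0111 or less). Slc25a30 was not called without treated rat 3 or 5 (adjusted p up to 0.0629), nor Aox3 without treated rat 2, 4, 5 or 6 or vehicle rat 2, 3, 5 or 6 (up to 0.12). Other fits ended the calls of Sik1, Krt10 and Nedd9 in a fit of the 12 animals (adjusted p up to 0.0943), Nedd9 in a fit of the 17 animals of day 29 (adjusted p = 0.0611), and of Zfp354a, Slc25a30 and Aox3 without vehicle rats 1 and 2 together (adjusted p up to 0.136).

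Whole liver holds several cell types, and in such samples fewer cells of a type and less RNA per cell cannot be told apart. All 10 measured hepatocyte markers had stored signals of 8 or more in every animal, and 0 were called, with differences from -0.07 to 0.10. Of 25 markers of stellate cells and extracellular matrix 2 fell and 0 rose, with a median of -0.17. Lox, which crosslinks collagen, had values of -0.49, 0.08 and 0.57 in the 200 mg/kg animals, against 0.04, 1.88 and 2.21 in vehicle animals, a difference of -1.45 ± 0.29 (adjusted p = 0.00461). The low vehicle value was that of rat 1. Pdgfrb, the PDGF receptor of stellate cells, fell by 0.52 ± 0.09 (adjusted p = 0.00136) with no overlap. The mean over the 25 markers ran from -0.06 to 0.15 in the 200 mg/kg animals, against 0.11 to 0.45 in vehicle animals, and its part in the falls of Lox and Pdgfrb was not tested. Without vehicle rats 1 and 2 together 4 of these markers fell. Of 19 Kupffer cell and macrophage markers only Cd14 rose, by 0.79 ± 0.13 (adjusted p = 0.000744), a lipopolysaccharide receptor that hepatocytes can also make. The other 18 had differences from -0.15 to 0.30, and the mean over the list ran from -0.81 to 0.27 in the 200 mg/kg animals, against -0.50 to 0.63 in vehicle animals. Of 13 endothelial markers Rspo3, a Wnt enhancer of the central vein, fell by 0.41 ± 0.11 (adjusted p = 0.0379), a call lost without any single one of treated rats 2 to 6 or of vehicle rats 3 to 6 (adjusted p up to 0.115). No marker was called among 22 of T, B and NK cells, 12 of neutrophils, 8 of erythrocytes and 10 of bile ducts, and none of the lymphoid or neutrophil markers had stored signals of 8 or more in all animals. Jchain, the joining chain of antibodies, fell by 0.81 ± 0.23 (adjusted p = 0.0462). That call was lost without treated rat 2, 3, 5 or 6 or vehicle rat 2, 4, 5 or 6 (adjusted p up to 0.132). No longer called were Lox (adjusted p = 0.0569) and Jchain (adjusted p = 0.282) with the 12 animals alone, Jchain with the 17 of day 29 (adjusted p = 0.17), and Jchain without vehicle rats 1 and 2 together (adjusted p = 0.0512).

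Along the liver lobule, 2 of 18 pericentral genes rose and 4 fell, and 0 of 21 periportal genes were called. The pericentral rises were Aldh1a1 and Ahr. The falls were Oat, Rgn, Lect2, a secreted hepatokine, at -0.49 ± 0.08 (adjusted p = 0.000986), and the dicarboxylate transporter Slc13a3 at -0.39 ± 0.11 (adjusted p = 0.0456), which was lost without treated rat 1, 5 or 6 or vehicle rat 3, 4, 5 or 6 (adjusted p up to 0.138). It was lost as well in a fit of the 12 animals (adjusted p = 0.122) and in one of the 17 animals of day 29 (adjusted p = 0.0737).

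Set beside the higher dose, the genes fell into different patterns. At 2000 mg/kg and day 29, 14.9% of genes rose and 11.2% fell against the same vehicle animals. Because the vehicle animals are shared, the values are given side by side, and the doses were tested directly against each other, where 8.12% of genes were higher and 4.71% lower at 2000 than at 200 mg/kg. The 200 mg/kg animals enter both that test and the one against vehicle. Many of the genes below were picked for a large, a called or a small difference between doses, so it is no separate support. For several genes the test did not separate the doses. Cyp2b1 differed from vehicle by 1.78 at 200 and 1.99 at 2000 mg/kg, a difference between doses of 0.21 ± 0.18 (adjusted p = 0.554; 95% interval from -0.17 to 0.59). Cyp2b2 differed by 1.84 and 2.24, with 0.40 ± 0.16 between doses (adjusted p = 0.112). Fkbp5 stood at 1.5 at 200 and 1.33 at 2000 mg/kg (between doses -0.17 ± 0.30, adjusted p = 0.8), Plk3 at 1.04 and 0.90, Cd14 at 0.79 and 0.76, Cish at -1.37 and -1.43, Sik1 at -1.05 and -1.16 and Cryl1 at 1.49 and 1.81 (adjusted p between doses of 0.263 or more). The intervals leave room for moderate differences, for Fkbp5 from -0.80 to 0.45.

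Other genes went further at the higher dose. Abcc3 stood at 3.11 at 200 and 4.40 at 2000 mg/kg, 1.29 ± 0.14 more (adjusted p = 2.2e-07), Gsta3 at 2.56 and 4.00 (1.43 ± 0.18 more, adjusted p = 2.24e-06) and Ces2c at 2.43 and 3.71 (1.28 ± 0.15 more, adjusted p = 7.71e-07). Nqo1 at 1.15 and 2.61, Akr7a3 at 1.48 and 2.66 and Egr1 at -1.26 and -2.91 followed the same course, each with a called difference between doses (adjusted p of 0.0011 or less). Derl3 at 0.61 and 2.59, Asns at 0.96 and 2.69, Csmd1 at 0.88 and 2.29 and Coro6 at 0.87 and 2.48 lay far higher at 2000 mg/kg, with adjusted p between doses of 6.38e-07 or less. Some genes that were not called at 200 mg/kg were among the high ones at 2000 mg/kg: Akr1b7 stood at 0.20 and 3.78, Gstp1 at 0.38 and 2.36, Gclm at 0.14 and 0.72 and Hmox1 at 0.52 and 1.29, all with called differences between doses (adjusted p of 0.00767 or less). Of the 29 NRF2-linked enzymes 6 rose at 200 and 19 at 2000 mg/kg, and of the 41 heat shock and proteasome genes 0 rose at 200 and 28 at 2000 mg/kg.

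A further set was raised or lowered at 200 mg/kg and not in the same way at 2000 mg/kg. Its members with a called difference between doses were picked for that call, so the call is no separate support. Slc13a5 had values of 0.87, 1.44 and 2.09 in the 200 mg/kg animals, against 0.04, 0.57 and 1.16 in vehicle animals. It differed from vehicle by 0.88 at 200 and by -1.09 at 2000 mg/kg (adjusted p = 0.0163 and 0.000438), and between doses by -1.97 ± 0.22 (adjusted p = 4.71e-07). Zfp354a stood at 1.02 and -0.09, Slc25a32, a mitochondrial folate carrier, at 0.82 and -0.01, Dcaf13, of ribosome assembly, at 0.49 and -0.25, Pfkfb3, which makes fructose 2,6-bisphosphate, at 0.62 and -0.05 and Thrsp at 0.83 and 0.01, each with a called difference between doses (adjusted p of 0.0295 or less). Among the falls, Slc34a2 stood at -0.91 at 200 and -0.17 at 2000 mg/kg (adjusted p between doses = 0.0134) and Cyp2c12 at -0.67 and 0.03 (adjusted p = 0.0174). Dcaf13 lost its call at 200 mg/kg without treated rat 4 or 5 or vehicle rat 1, 2 or 6 (adjusted p up to 0.0959), and the omissions that ended the calls of Slc13a5, Zfp354a, Thrsp and Cyp2c12 are given above. Further genes were called at 200 and not at 2000 mg/kg without a called difference between doses, and are not shown to differ: the kinase Pim3 at 0.62 and 0.13, the ligase Mid1 at 0.64 and 0.18, the receptor transporter Rtp3 at -0.63 and -0.24 and the guanylate cyclase subunit Gucy1b2 at -0.59 and -0.31. Pim3 was not called at 200 mg/kg without treated rat 4 or 5 or vehicle rat 1 or 2 (adjusted p up to 0.0575), nor Mid1 without treated rat 5 (0.0512). Other fits ended the calls of Dcaf13, Mid1 and Rtp3 with the 12 animals alone (adjusted p up to 0.0817), Dcaf13 and Mid1 with the 17 of day 29 (adjusted p up to 0.0752), and of Slc25a32, Dcaf13, Pim3 and Mid1 without vehicle rats 1 and 2 together (adjusted p up to 0.206).

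**Figure D5:**
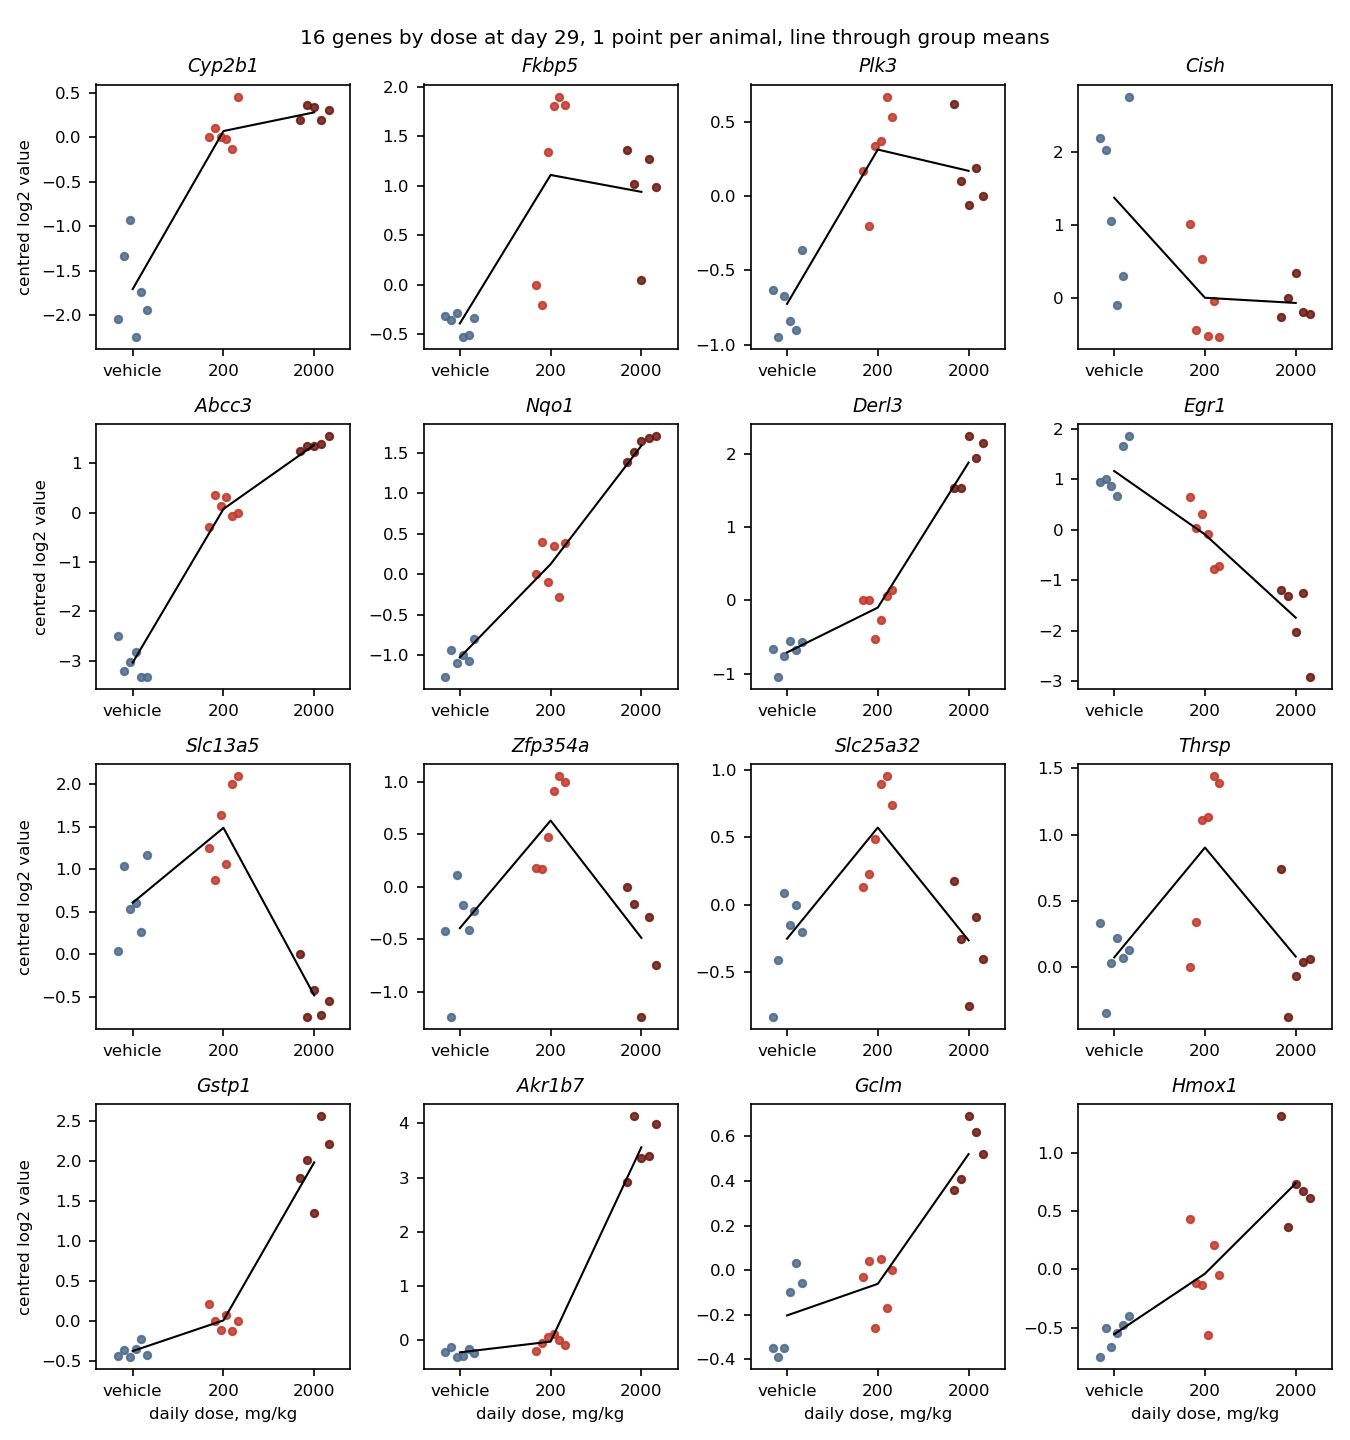
Centred log2 value (vertical, scaled for each panel) of 16 genes in each animal of day 29 by daily dose: vehicle (n = 6), 200 mg/kg (n = 6) and 2000 mg/kg (n = 5), with a line through the group means. The top row shows genes whose doses the test did not separate, the second row genes that went further at 2000 mg/kg, the next row genes such as Slc13a5 that rose at 200 mg/kg only, and the bottom row genes not called at 200 mg/kg.

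The animals killed on day 8 allow a comparison that shares no animal with the 12 of this contrast, although the fit pools its spread over all 29. There, 7 doses of 2000 mg/kg raised 2548 clusters and lowered 2548 (9.32% each) against vehicle. Of the 374 clusters that rose at 200 mg/kg on day 29, 269 rose there as well, 71.9% of the day 29 list and 10.6% of the day 8 list, and 4 fell. Of the 387 that fell, 267 fell there too, 69% and 10.5% of the lists, and 1 rose. Abcc3 differed by 3.54, Cyp2b2 by 1.91, Ces2c by 3.19 and Socs2 by -2.06 at 2000 mg/kg on day 8. Fkbp5 stood at 0.47 there (adjusted p = 0.31), Nr4a1 at -0.76 (adjusted p = 0.184), Jun at -0.02 (adjusted p = 0.98) and Sik1 at -0.21 (adjusted p = 0.641), none of them called.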

How the data were processed

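Liver RNA of 29 rats was measured on Affymetrix whole-transcript arrays, 1 array per animal, after amplification with the Ambion WT Expression kit, per the labels. The deposited log2 values were made by the authors with software that the submitters' processing notes name as PLIER and MAS5. Their versions, roles and background step are unstated there. Every cluster had a median of 0 over the 29 arrays, so the values hold no level. Stored values of 8 or more, before centring, were recognised from the spacing of the deposited numbers for 7768 clusters.

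With limma 3.58.1 in R 4.3.3, 5 groups were fitted over all 29 animals, with eBayes and Benjamini-Hochberg adjustment over 27342 clusters and a threshold of 0.05. Of the clusters 15097 had 1 symbol in the platform annotation, 323 several and 11922 none. Of the 14324 genes, 499 had several clusters: a cluster with stored values of 8 or more came first, then the lowest probe number. The labels call the animals biological replicates. Replicate numbers are shared by the groups but are not stated to pair animals.

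The genes and lists were chosen with earlier results of these data known. Named were called genes with all treated animals on 1 side of the vehicle mean, 24 with the largest rise and 20 with the largest fall, a set of fixed genes, up to 8 members of each list by size of difference, and genes that differed most or least between doses. Cyp2c6v1, Igfals, Gstm1, Srxn1, Keap1 and Pir were added after their values were seen, and Csnk1e, Acadm and Gpd1 to complete small counts. Alternatives were other animals in the fit, scaling, weights, filters, thresholds and omission of each animal. The number of arrays limits the precision. Promoters were aligned with Biopython 1.88.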

Additional observations from a re-analysis of the deposited data

Results flagged for a closer look

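Single animals lay apart from the rest of their group for 6 genes, by a gap that chance alone gives in about 1 of 20 groups; 7 of 256 groups showed it. Among the 200 mg/kg animals, Akr7a3 was lowest in replicate 3 at -0.78, with the nearest other animal at -0.01, yet this value lay above every vehicle animal. Asns was highest in replicate 6 at 0.5, against 0.08 in the nearest. Csmd1 was highest in replicate 2 at 0.3, against 0.04. Rtp3 was highest in replicate 1 at 0.31, against -0.34. Among the vehicle animals, Csmd1 was highest in replicate 1 at -0.24, with the nearest at -0.86, and Ggcx was lowest in replicate 1 at -0.46, against -0.32. Slc34a2 was lowest in replicate 3 at -1.04, with the nearest at -0.05.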

How the results depend on the processing

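The main counts were 374 clusters higher and 387 lower, with 24 and 14 of them changed at least 2-fold. With only the 17 animals of day 29 in the fit, 210 were higher and 246 lower. With only the 12 animals compared, 179 were higher, 161 lower and 7 lower by at least 2-fold. At a threshold of 0.01 these counts were 145, 132 and 7. Among clusters with stored values of 8 or more alone, 8 were lower by at least 2-fold. Leaving out 1 animal at a time gave 217 to 470 higher, 219 to 632 lower, 18 to 27 higher by at least 2-fold and 7 to 22 lower by at least 2-fold. For the last count, 22 were found without 200 mg/kg replicate 1, 8 without replicate 4, 7 without replicate 5, 8 without replicate 6, and 9 without vehicle replicate 6. These fits held fewer animals or clusters or used a stricter threshold, and the causes of the moved counts were not tested. With the replicate number as a block, 399 clusters were higher and 381 lower. Same-numbered animals of both groups had deviations that correlated by 0.30, -0.01, -0.18, 0.07, -0.13 and 0.09 for replicates 1 to 6, and only replicate 1 correlated best with its own number, so the numbers are not taken as pairing. Of 106 called genes named in the text, 48 kept their call under every alternative, 58 lost it under at least 1, and 0 reversed. Of those calls 49 were lost at the threshold of 0.01, 38 with only the 12 animals compared, 26 without vehicle replicates 1 and 2 together, 25 with only the 17 animals of day 29 and 4 to 35 without any 1 animal, the 35 without 200 mg/kg replicate 5. Quantile normalization ended 8, array weights 5, centred arrays 4, the replicate block 3 and robust eBayes 1. Low signal limits what some lists can show: 3 of 41 replication genes and 0 of 22 lymphoid markers had stored values of 8 or more. Among the genes named, Abcc3, Gsta3, Nqo1, Cyp1a1, Asns, Cyp4a8, Lox, Cish, Nr4a1 and Mcm10 were not recognised as such in all animals. How far low signal shaped their differences was not tested.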
